A study of Mus musculus with 10 samples.

Results

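The immediate-early response genes examined here are 34 genes known for rapid transcription after growth factors or stress, taken by name from a table of 26312 mouse genes. All 34 had a row, and all 34 were among the 15180 genes that were tested, those averaging 10 or more normalized counts over the libraries. They comprised 9 AP-1 genes (Fos, Fosb, Fosl1, Fosl2, Jun, Junb, Jund, Atf3 and Maff), 3 EGR genes (Egr1, Egr2 and Egr3), 4 KLF genes (Klf2, Klf4, Klf6 and Klf10) and 3 NR4A genes (Nr4a1, Nr4a2 and Nr4a3). Another 6 act in growth arrest or RNA decay (Btg1, Btg2, Gadd45a, Gadd45b, Gadd45g and Zfp36), and 9 were kept as other early genes (Ier2, Ier3, Ier5, Dusp1, Arc, Rhob, Csrnp1, Nfkbiz and Srf).

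RNA was sequenced from sorted mammary luminal cells of C57BL/6J mice aged 12 weeks, either RSK2(+/+), called WT here, or RSK2(-/-), called KO. Glands were taken at estrus (3 WT and 3 KO libraries) or at diestrus (2 WT and 2 KO libraries). Every group went through the same collagenase digestion of 2.5 h, then DNase, Accumax, trypsin and antibody staining before 50000 EpCAM-high, CD49f+, Sca-1+, CD49b- cells were sorted, and tissue that had not been dissociated was not analysed here. The labels do not describe how the KO allele was made, nor whether a library held 1 mouse or a pool, so p-values measure the spread between these libraries, which may be technical.

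Immediate-early genes are transcribed within minutes of a stimulus, without new protein synthesis, because the factors that switch them on are already in place. In the ERK pathway, ERK and the RSK kinases it activates phosphorylate such factors, among them the ternary complex factors and SRF at CArG boxes and CREB at cyclic AMP response elements (CRE), and RSK2 can also phosphorylate the c-Fos and Nr4a1 proteins. Enzymatic dissociation of a tissue is itself a known inducer of many of these genes.

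Whole-series values that bear on these genes were as follows. Library totals ran from 14.1 to 15.3 M normalized counts. The listed markers of hormone-sensing luminal cells, the type the gate selects, summed to between 344044 and 454927 normalized counts per library, most of them from Krt8, Krt18 and Epcam, which luminal cells of other kinds express too. Of the hormone receptor genes in that list, Esr1 had 1468 to 3334 counts, Pgr 748 to 1688 and Prlr 26088 to 48303. Luminal progenitor markers summed to 1782 to 3293, basal markers to 430 to 2077 and endothelial markers to 23 to 101. The targeted transcript, Rps6ka3, was measured at 136, 128 and 137 normalized counts in WT estrus and 158, 156 and 164 in KO estrus, and at 165 and 139 in WT diestrus and 156 and 165 in KO diestrus. It was therefore not lower in the libraries labelled KO, and a whole-gene count does not check an allele that leaves the transcript in place.

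Of the 34 genes, 27 had 1 or more promoter windows in RefSeq for GRCm38.p6, each from 250 bases before to 50 after an annotated start. There were 36 windows in all, because Egr2 had 5, Csrnp1 4 and Maff 3, partly overlapping, and a gene was counted as holding a motif where any of its windows did. The windows were searched on both strands for the letters that the pathway's factors are known to bind. The CRE core TGACG was held by 16 of the 27 genes (59.3%), against 23.0% of 27025 genes counted in the same way. The EGR element GCGNGGGCG was held by 11 genes (40.7%, against 6.27% of all), the full CRE TGACGTCA, which contains TGACG, by 3 (11.1%, against 2.03%), and a CArG box by 3 (11.1%, against 1.81%). The AP-1 element TGANTCA was held by 1 gene, Csrnp1 (3.7%, against 8.97%). Counted by window, TGACG lay in 22 of 36 (61.1%, against 20.8% of all 32851 windows) and a CArG box in 6 of 36 (16.7%, against 1.63%), which are 4 windows of Egr2 and those of Srf and Zfp36. Letters more than 250 bases before a start were not searched, so a gene without a match, such as Fos for the CArG box, may hold one further away. The 7 genes without a window (Fosl1, Egr1, Egr3, Klf10, Ier2, Arc and Nfkbiz) were not searched at all. A match describes letters and not a bound site, and no binding was measured.

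Promoter stretches of 6 genes are printed here, each 220 bases from position -250 to -31 relative to the RefSeq start: 3 of genes that rose between the stages in KO (Junb, Klf2 and Btg2), those of Fos and Nr4a1 because their products are RSK2 substrates, and that of Srf, which holds CArG boxes. Capitals mark TGACG, TGACGTCA, GCGNGGGCG or a CArG box on either strand. Each is written 5′ to 3′ on the strand of its gene.
Junb promoter: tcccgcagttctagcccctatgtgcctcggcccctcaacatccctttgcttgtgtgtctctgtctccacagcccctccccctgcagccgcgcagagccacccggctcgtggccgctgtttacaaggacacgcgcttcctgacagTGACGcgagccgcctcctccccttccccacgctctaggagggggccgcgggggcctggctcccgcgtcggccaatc
Fos promoter: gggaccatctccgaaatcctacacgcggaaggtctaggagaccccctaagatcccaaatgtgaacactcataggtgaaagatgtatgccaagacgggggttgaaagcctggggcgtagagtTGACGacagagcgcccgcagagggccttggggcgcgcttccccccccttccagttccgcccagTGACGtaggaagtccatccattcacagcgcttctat
Klf2 promoter: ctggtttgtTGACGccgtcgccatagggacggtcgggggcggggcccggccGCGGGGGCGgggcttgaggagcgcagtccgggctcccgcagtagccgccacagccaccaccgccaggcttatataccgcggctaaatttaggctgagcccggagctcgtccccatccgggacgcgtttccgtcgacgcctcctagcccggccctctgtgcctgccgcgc
Nr4a1 promoter: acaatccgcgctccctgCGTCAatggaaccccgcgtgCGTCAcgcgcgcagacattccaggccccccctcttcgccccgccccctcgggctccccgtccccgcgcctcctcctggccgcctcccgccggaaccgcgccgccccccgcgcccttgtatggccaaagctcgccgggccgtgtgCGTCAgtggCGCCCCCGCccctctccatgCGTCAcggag
Btg2 promoter: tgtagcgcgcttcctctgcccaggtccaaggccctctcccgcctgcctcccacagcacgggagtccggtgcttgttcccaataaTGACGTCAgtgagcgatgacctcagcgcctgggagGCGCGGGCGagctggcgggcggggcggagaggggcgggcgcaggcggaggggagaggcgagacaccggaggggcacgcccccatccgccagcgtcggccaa
Srf promoter: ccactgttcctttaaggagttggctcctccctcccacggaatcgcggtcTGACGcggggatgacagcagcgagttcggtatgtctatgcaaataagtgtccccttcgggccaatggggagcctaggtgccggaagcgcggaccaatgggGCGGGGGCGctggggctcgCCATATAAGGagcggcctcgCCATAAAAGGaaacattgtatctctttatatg
The Junb stretch is chr8:84978779-84978998 on the minus strand, with TGACG at 106 bases before the start. The Fos stretch is chr12:85473640-85473859 on the plus strand, with TGACG matches at 129 and 66 bases before the start. The Klf2 stretch is chr8:72318812-72319031 on the plus strand, with TGACG at 241 and the EGR element at 199 bases before the start. Nr4a1 (chr15:101266596-101266815, plus strand) had the most TGACG matches of the 6, at 233, 213, 69 and 40 bases before the start, and an EGR element at 60. Btg2 (chr1:134079186-134079405, minus strand) held a full CRE at 166 and an EGR element at 131 bases before the start. Srf (chr17:46556193-46556412, minus strand) held a pair of CArG boxes at 82 and 62, TGACG at 201 and an EGR element at 101 bases before the start.

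Levels of the family members were spread over 12023-fold once divided by transcript length. Fos, a dimer partner of Jun proteins in AP-1, was the highest of the 34 at 30268 normalized counts per kb over all libraries. It had rank 28 of 15146 tested genes with a length. Atf3, a stress-induced bZIP factor, followed at 20947 per kb, then Gadd45g, a growth arrest gene, at 15538 and Jun at 14075. In all, 6 members (Fos, Atf3, Gadd45g, Jun, Jund and Junb) were among the 100 highest genes per kb and 20 among the 1000 highest. The EGR and NR4A families were each led by 1 gene: Egr1 stood at 4201 per kb against 49.5 for Egr2 and 4.46 for Egr3, and Nr4a1 at 1428 per kb against 8.84 for Nr4a2 and 2.52 for Nr4a3. In the KLF family Klf6 was highest at 8328 per kb, and the other members lay between 803 and 1173.

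The 34 genes took 2.12, 2.42 and 2.68% of all normalized counts in the WT estrus libraries and 2.64, 3.16 and 3.23% in KO estrus. They took 2.04 and 2.43% in WT diestrus and 2.07 and 2.26% in KO diestrus. The share in KO estrus overlapped that in WT estrus by 1 library and lay above both diestrus groups. AP-1 genes made up 1.07 to 1.84% of a library, of which Fos alone was 0.315 to 0.644%. In these bulk samples, fewer cells expressing a gene and less RNA of it per cell cannot be told apart.

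**Figure D1:**
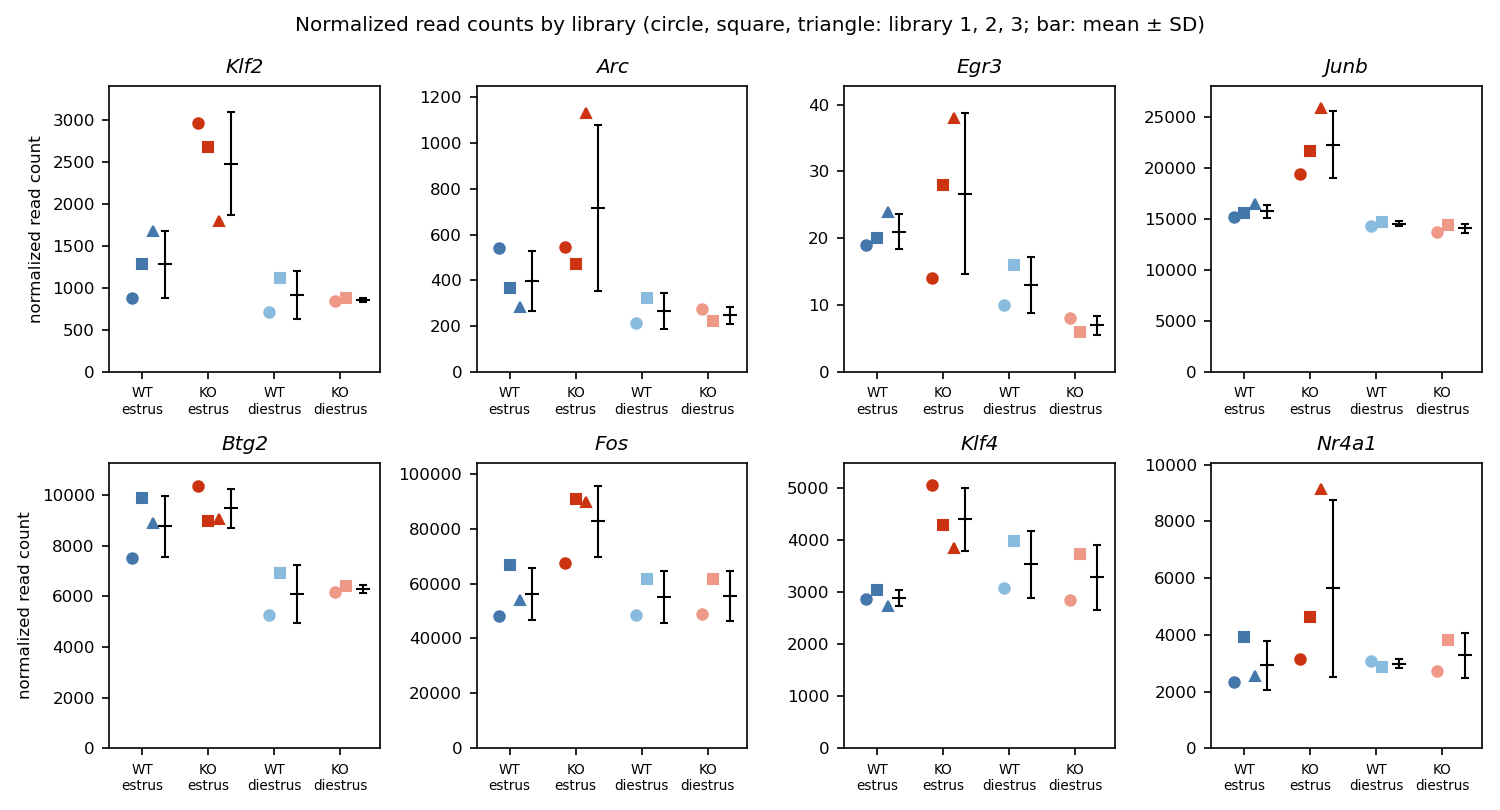
Normalized counts of 8 of the genes described in full, 1 panel per gene with a linear axis from 0, by group. Circles, squares and triangles are libraries 1, 2 and 3 of a group, and bars are the group mean ± SD; in Klf2, Junb and Fos all 3 KO estrus points lie above those of the other groups, while Nr4a1 and Arc hold 1 high KO estrus library.

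In KO cells, 5 of the 34 genes were higher at estrus than at diestrus and 0 were lower. The 5 genes were Klf2, Arc, Junb, Egr3 and Btg2, 1.51-fold to 3.24-fold higher. That is 14.7% of the members, against 16.6% of all 15180 tested genes called in either direction, 7.67% called higher and 8.95% called lower in that comparison (limma, Benjamini-Hochberg adjusted p under 0.05). The median log2 difference of the 34 genes was 0.46 (quartiles 0.12 and 0.65), with 30 of 34 above 0 (88.2%), beside a median of -0.01 and 49.3% above 0 over all tested genes. The 3 KO estrus libraries lay wholly above both KO diestrus libraries in 18 members and wholly below in 1 (Nfkbiz), where 25% of all tested genes lay above and 26% below.

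In the AP-1 family, Junb, a Jun protein whose dimers with Fos proteins bind the AP-1 element, was the only one of 9 that passed the test between the stages in KO. Junb had 19391, 21609 and 25832 normalized counts in KO estrus and 13760 and 14373 in KO diestrus. WT libraries held 15150, 15569 and 16459 counts at estrus and 14346 and 14675 at diestrus. All 3 KO estrus values stood above every other library. Between the stages in KO the log2 difference of Junb was 0.65 ± 0.17 (SE), 1.57-fold, with an adjusted p of 0.027 by limma. The family's median log2 difference was 0.38, and 8 of 9 members were above 0.

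Fos had 67599, 90801 and 89527 normalized counts in KO estrus and 49075 and 61816 in KO diestrus, against 48055, 66731 and 54079 in WT estrus and 48533 and 61823 in WT diestrus. The KO estrus libraries were above all others, the nearest being WT estrus 2. Yet the stage difference in KO, 0.57 ± 0.26 on the log2 scale, did not pass (adjusted p = 0.142, limma). The other AP-1 genes had stage differences in KO from -0.36 (Fosl1, a Fos-family gene) to 0.64 (Atf3), with adjusted p of 0.157 or more. Jun, the classical Fos partner, had 38355 to 54046 counts in KO estrus and 35357 to 36861 in KO diestrus, and 39223 to 53957 in the WT libraries.

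Among the EGR genes, zinc finger factors that bind GC-rich elements, the least abundant rose between the stages in KO. Egr3 had 14, 28 and 38 normalized counts in KO estrus and 8 and 6 in KO diestrus, beside 19, 20 and 24 in WT estrus and 10 and 16 in WT diestrus. Both stages were separated in each genotype, at a level where few reads set the value. Egr3 was 3.24-fold higher at estrus in KO (log2 1.69 ± 0.47, adjusted p = 0.0327, limma).

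Egr2 had 170, 205 and 365 normalized counts in KO estrus, 120 and 136 in KO diestrus, 112, 194 and 104 in WT estrus and 84 and 87 in WT diestrus. Within each genotype the estrus libraries were above the diestrus libraries, and the log2 difference in KO was 0.86 ± 0.33 (adjusted p = 0.0925, limma). Egr1, the family's most abundant member, had 14469, 24949 and 27199 in KO estrus and 18780 and 20798 in KO diestrus. Its WT values were 12666, 19148 and 23763 at estrus and 12940 and 13664 at diestrus. The stages overlapped for Egr1 in both genotypes, and its log2 difference in KO was 0.12 ± 0.30.

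The smallest adjusted p of the 34 genes in this comparison was that of a KLF gene. Klf2, a zinc finger factor best known from endothelial cells and T cells, had 2965, 2684 and 1793 normalized counts in KO estrus and 840 and 876 in KO diestrus. WT estrus libraries held 883, 1286 and 1684, and WT diestrus 714 and 1114. KO estrus stood above every other library, with KO estrus 3 only slightly above WT estrus 3. Klf2 was 2.83-fold higher at estrus in KO (log2 1.50 ± 0.28, adjusted p = 0.00869, limma). Endothelial markers summed to 32 to 49 normalized counts in KO estrus and 23 and 81 in KO diestrus. Lymphocyte markers, 4 of 8 of which had a row, summed to 139 to 188 in KO estrus and 88 and 106 in KO diestrus, without overlap. The part of these cells in the Klf2 result was not tested.

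Klf4, a regulator of epithelial differentiation, had 5065, 4287 and 3860 normalized counts in KO estrus, 2845 and 3729 in KO diestrus, 2866, 3051 and 2739 in WT estrus and 3082 and 3993 in WT diestrus. It was above KO diestrus in every KO estrus library, but 1 WT diestrus library lay within the KO estrus range (log2 0.43 ± 0.18 between the stages in KO, adjusted p = 0.118, limma). Klf6 had 49715, 43405 and 21386 in KO estrus, from the highest to the lowest of all 10 libraries, and 27825 and 30104 in KO diestrus, with 35590, 37346 and 35017 in WT estrus and 27810 and 43650 in WT diestrus. Klf10, first described as a TGF-beta-induced early gene, ranged from 2025 to 3796 in KO estrus and from 3556 to 3675 in KO diestrus, and its WT libraries from 2752 to 4674.

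No NR4A gene passed the test between the stages in KO. These orphan nuclear receptors act without a known classical ligand. Nr4a1 (Nur77) had 3140, 4630 and 9150 normalized counts in KO estrus and 2720 and 3834 in KO diestrus, with 2335, 3922 and 2538 in WT estrus and 3095 and 2883 in WT diestrus. The groups overlapped, and KO estrus 3 stood far above every other library. The log2 difference in KO was 0.66 ± 0.36 (adjusted p = 0.225, limma). Nr4a2 (20 to 57 counts) and Nr4a3 (3 to 27) were near the lower limit of the table in all 10 libraries.

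Among the growth arrest and RNA decay genes, Btg2, an antiproliferative protein that recruits the deadenylase complex to mRNA, had 10367, 8982 and 9065 normalized counts in KO estrus and 6169 and 6389 in KO diestrus. In WT it had 7491, 9894 and 8894 at estrus and 5269 and 6899 at diestrus. Estrus was above diestrus in every library of both genotypes. In KO the stage difference was 0.59 ± 0.18 on the log2 scale, 1.51-fold, with an adjusted p of 0.0411 (limma).

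Gadd45g had 14818, 17171 and 30939 normalized counts in KO estrus, 11598 and 11557 in KO diestrus, 19378, 11177 and 12425 in WT estrus and 13338 and 24008 in WT diestrus. The KO stages did not overlap and the WT stages did (log2 0.78 ± 0.34 in KO, adjusted p = 0.133, limma). Gadd45b, a stress-induced relative, had a log2 difference of 0.84 ± 0.27 with an adjusted p of 0.0509, just outside the threshold, while Btg2 at 0.0411 was just inside. Zfp36, or tristetraprolin, which binds AU-rich elements and promotes mRNA decay, had 11335, 12711 and 17605 in KO estrus and 9248 and 10734 in KO diestrus, with 7987, 10122 and 10659 in WT estrus and 7703 and 8875 in WT diestrus. Its KO estrus libraries were above all others, with a stage difference in KO of 0.45 ± 0.21 (adjusted p = 0.156, limma). Btg1 and Gadd45a had stage differences in KO of 0.12 and -0.09.

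Of the other early genes, Arc, best known as an activity-induced gene of neurons, rose between the stages in KO. Arc had 544, 471 and 1132 normalized counts in KO estrus and 274 and 222 in KO diestrus, with 543, 366 and 284 in WT estrus and 212 and 322 in WT diestrus. KO estrus lay above both diestrus groups and overlapped WT estrus, and its top value was KO estrus 3. The log2 difference was 1.42 ± 0.36, 2.68-fold, with an adjusted p of 0.0231 (limma).

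Ier2, a nuclear protein of the early response, had 9284, 9515 and 13976 normalized counts in KO estrus and 7030 and 6928 in KO diestrus, with 8160, 6801 and 10378 in WT estrus and 6245 and 6705 in WT diestrus. Estrus was above diestrus in both genotypes, and the log2 difference in KO was 0.62 ± 0.22 (adjusted p = 0.0693, limma). Dusp1, the phosphatase that switches off MAP kinases, had a stage difference in KO of 0.53 ± 0.21 (adjusted p = 0.0996). Srf, the CArG-box factor itself, had 437 to 595 counts in KO estrus and 449 to 490 in KO diestrus, a difference of 0.06 ± 0.22. The small GTPase gene Rhob, the NF-kappa-B cofactor gene Nfkbiz and the remaining Ier3, Ier5 and Csrnp1 had differences from -0.29 (Nfkbiz) to 0.58 (Rhob), with adjusted p of 0.251 or more.

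The stage calls in KO depended on the diestrus libraries. Without KO diestrus 1 or without KO diestrus 2, 0 of the 34 genes were called, while the share of all tested genes called went to 0.995% and 0.257%. Without KO estrus 2 there were 2 calls, against 12.7% of all genes, and without KO estrus 1 and 3 together there were 0, against 1.28%. Klf2 and Arc kept their calls in 8 of the 10 omissions of 1 library, Junb in 7, Egr3 in 6 and Btg2 in 5, and all 5 genes stayed higher at estrus in every omission.

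Other measures differed between the KO stages as well. Macrophage markers summed to 715 to 1013 normalized counts in KO estrus and 477 and 489 in KO diestrus, over 8 listed markers. Of these, Cd74 had 409, 436 and 215 counts in KO estrus against 60 and 71 in KO diestrus, H2-Ab1 197, 226 and 136 against 54 and 45, and C1qb 44, 30 and 8 against 1 and 0, all called by limma. The macrophage receptor gene Csf1r had 187, 189 and 205 counts against 236 and 234, and Adgre1 was at 0 to 5 counts in every library. Fibroblast markers ranged from 107 to 3101 in KO estrus, of which Dcn was 88 to 3065, and from 94 to 117 in KO diestrus. Markers of the luminal types and of the gate also differed between the KO stages by limma. Itga2, which encodes the CD49b that the gate excludes, had 174, 96 and 57 counts at estrus against 236 and 339 (log2 -1.51 ± 0.36, adjusted p = 0.0189), and Prom1 2191, 3414 and 9671 against 12984 and 13432 (-1.66 ± 0.48, 0.0357). Ly6a, which encodes the Sca-1 that the gate requires, was higher at estrus by 1.02 ± 0.29 (adjusted p = 0.0345), Wnt4 by 0.64 ± 0.16 (0.0204) and Cd14 by 0.63 ± 0.19 (0.0441). The progenitor markers Kit and Aldh1a3 were at -0.73 and -0.66 without overlap, with adjusted p of 0.0552 and 0.075. Itga2 and Cd14 are on the same progenitor list, and Cd14 went the other way. Elf5 and Csn3, the other tested genes of that list, were at -0.56 and -0.26 and were not called. In each library, the deviation of each gene from its own log2 mean over all libraries was set against transcript length. The slope of that deviation was -0.1187, -0.0325 and -0.0785 log2 units per doubling of length in the KO estrus libraries. It was 0.0594 and 0.0583 in KO diestrus. With each library's trend on length removed, 3 of the 34 genes (Arc, Egr3 and Klf2) were called, while 10.4% of all genes were called and 4.82% called higher. Junb then stood at 0.46 (adjusted p = 0.0958, limma) and Btg2 at 0.59 (0.0593). The part of the marker genes in these results was not tested.

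**Figure D2:**
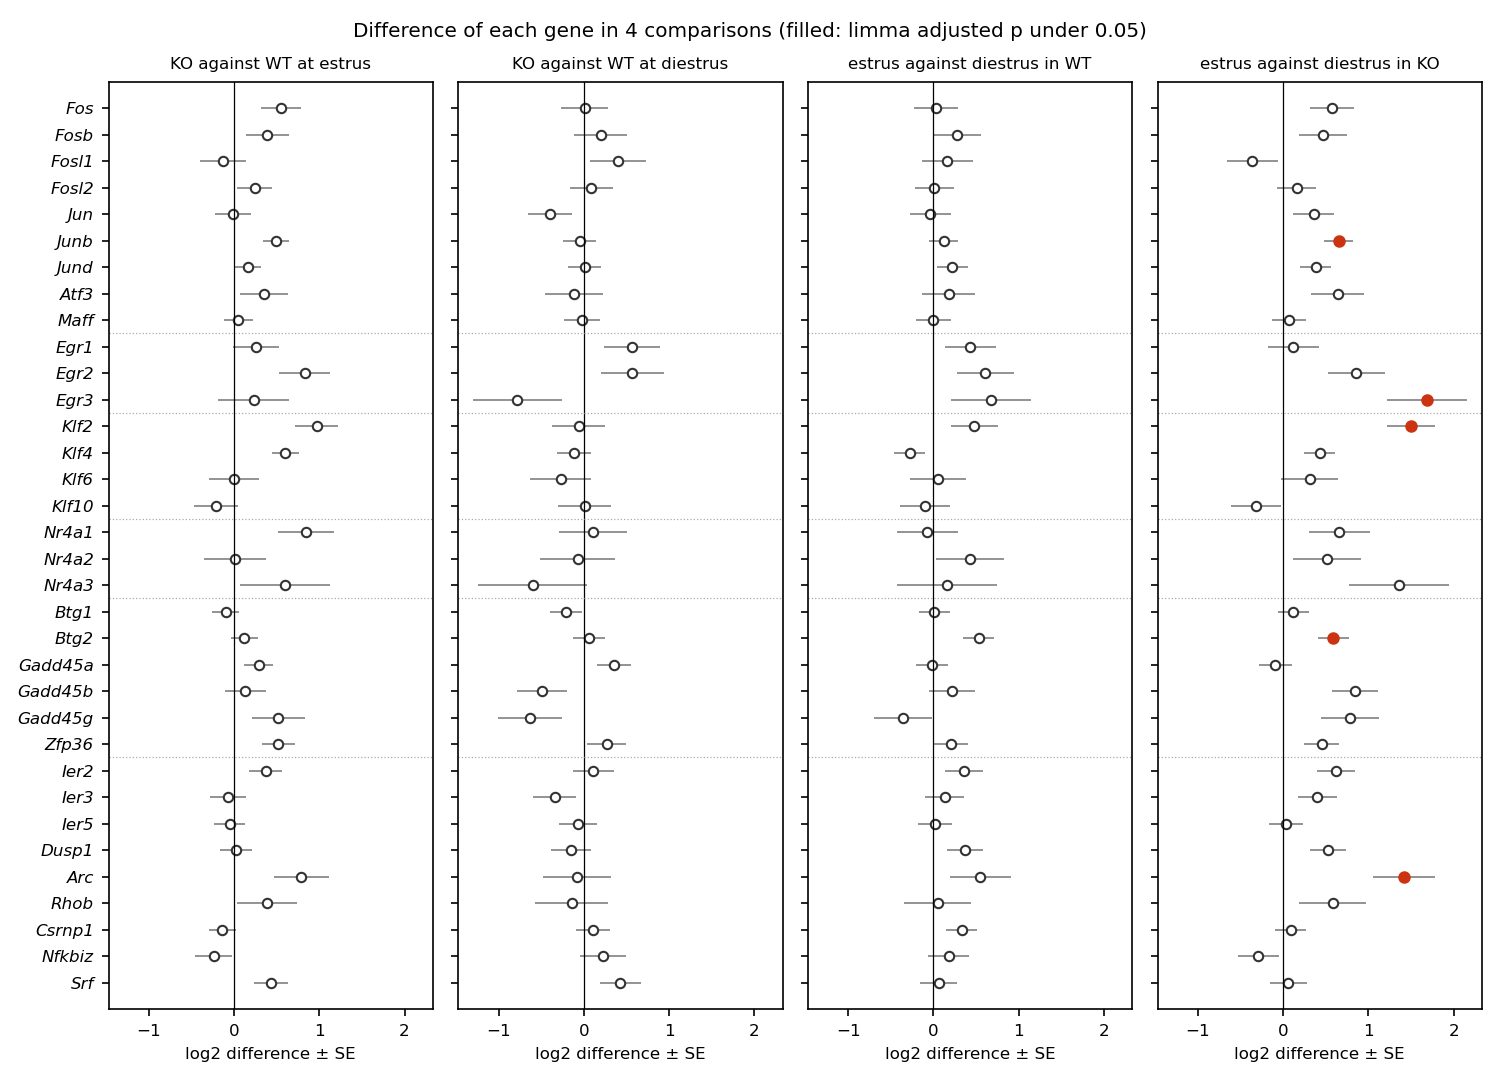
Log2 difference of each of the 34 genes (points) with its standard error (bars) in 4 comparisons, 1 panel each on a shared axis in log2 units, with dotted lines between families. Between estrus and diestrus in KO, 30 of 34 genes lie above 0, and the 5 filled points passed the limma test; the KO estrus libraries enter both this panel and that of KO against WT at estrus.

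In WT, 0 of the 34 genes were called between estrus and diestrus, as were 0% of all tested genes, and 1 had an unadjusted limma p under 0.05 (2.94% of the members, against 3.87% of all tested genes). That gene was Btg2, at 0.53 ± 0.18 on the log2 scale. The median of the 34 genes was 0.16, with 28 above 0, beside a median of -0.00 over all genes. Estrus lay wholly above diestrus in 8 genes (Junb, Jund, Egr2, Egr3, Btg2, Ier2, Dusp1 and Csrnp1) and wholly below in 1 (Klf4), where 8.72% of all tested genes lay above and 8.99% below.

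The largest WT stage differences among genes whose groups did not overlap were those of Egr3 (0.68 ± 0.47), Egr2 (0.61 ± 0.33) and Btg2. Set beside the KO values, Btg2 differed by 0.53 in WT and 0.59 in KO, Egr2 by 0.61 and 0.86, Junb by 0.12 and 0.65, and Klf2 by 0.48 and 1.50. By family, the WT medians were 0.12 for AP-1, 0.61 for EGR, -0.03 for KLF and 0.16 for NR4A. Whether the stage difference itself differed between the genotypes was tested as an interaction, in which 0 of 34 genes and 0% of all tested genes were called, with 4 members (11.8%, against 14.2% of all tested genes) at an unadjusted limma p under 0.05. Those 4 were Junb (0.54 ± 0.24, adjusted p = 0.349), Klf2 (1.02 ± 0.40, 0.303), Klf4 (0.71 ± 0.25, 0.273) and Gadd45g (1.14 ± 0.48, 0.326). A stage effect particular to KO was therefore not shown for any of the 34 genes by this test.

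The direct comparison of genotypes at estrus asks whether loss of a kinase that acts on these genes' factors goes with another level of their RNA. It uses the same KO estrus libraries as the stage comparison in KO. By limma, 0 of the 34 genes were called, against 4.2% of all tested genes, and 8 had an unadjusted p under 0.05 (23.5% of the members, against 25.8% of all tested genes). The median log2 difference was 0.25 (quartiles -0.00 and 0.51), with 25 of 34 genes above 0 (73.5%), beside a median of -0.01 and 49% above 0 over all genes. KO estrus lay wholly above WT estrus in 5 genes and wholly below in 0, where 12.9% of all tested genes lay above and 13.1% below. Lymphocyte markers summed to 139 to 188 normalized counts in KO estrus and 64 to 92 in WT estrus, and macrophage markers to 715 to 1013 and 350 to 709. Of the tested macrophage markers, Cd74 stood at 1.54, C1qb at 1.45, H2-Ab1 at 1.38 and Lyz2 at 0.89 on the log2 scale. Csf1r was at -0.10 and Cd68 at 0.06, and limma called none of these macrophage markers. Trbc2, a T cell receptor gene that made up most of the lymphocyte sum, had 183, 150 and 137 counts in KO estrus against 90, 57 and 68 (log2 1.13 ± 0.22, adjusted p = 0.0276, limma). Itga2 stood at -1.06 and Elf5, a progenitor factor, at -0.92, both without overlap and with adjusted p of 0.0732 and 0.097. Both are on the progenitor list, in which Kit was at -0.20, Aldh1a3 at 0.32, Csn3 at 0.15 and Cd14 at 0.17. Progenitor sums overlapped, at 2406 to 3293 in KO estrus and 2463 to 2769 in WT estrus. The length slopes did not overlap either, at -0.0283, 0.037 and 0.0277 in WT estrus beside the lower KO estrus slopes given above. The part of the markers in these differences was not tested, and with the length trend removed the number called stayed at 0.

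Those 5 genes came from 3 families. Klf2 had the largest difference, 0.97 ± 0.25 on the log2 scale (adjusted p = 0.0527, limma), followed by Klf4 at 0.60 ± 0.16 (0.053). Fos stood at 0.55 ± 0.23 (adjusted p = 0.155), Zfp36 at 0.52 ± 0.19 (0.113) and Junb at 0.49 ± 0.15 (0.077). Klf2 and Klf4 lay at the edge of the threshold and were called when genes with a mean under 50 counts were left out, and Klf2, Klf4 and Rhob when KO estrus 3 was left out. The share of all tested genes called was 7.17% and 5.99% under these settings, against 4.2%.

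The remaining differences at estrus were more scattered. Nr4a1 was at 0.84 ± 0.33, Egr2 at 0.83 ± 0.30 and Arc at 0.79 ± 0.32, each with groups that overlapped and an adjusted p of 0.11 or more. Jun, Klf6, Nr4a2, Dusp1, Ier5 and Maff lay within 0.05 of 0 in log2 units. The lowest was Nfkbiz at -0.24 ± 0.22. Family medians were 0.24 for AP-1, 0.26 for EGR, 0.30 for KLF, 0.60 for NR4A, 0.21 for growth arrest and RNA decay and 0.02 for the other early genes.

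At diestrus, 0 of the 34 genes were called between the genotypes, against 0.0395% of all tested genes, and 0 had an unadjusted limma p under 0.05 (5.92% of all tested genes had). The median was -0.03, and 16 of 34 lay above 0. The groups of 2 did not overlap in 14 members (9 higher, 5 lower in KO), where 21.4% of all tested genes were higher and 21.6% lower in this way. The largest such differences were Egr3 at -0.78 ± 0.52, Gadd45g at -0.63 ± 0.38 and Egr2 at 0.57 ± 0.37. Averaged over both stages, 0 members were called (0.665% of all genes) and 5 had an unadjusted limma p under 0.05, which is 14.7% of the members and 14.7% of all tested genes. The 5 were Egr2 at 0.70, Klf2 at 0.45, Srf at 0.43, Zfp36 at 0.39 and Gadd45a at 0.32.

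**Figure D3:**
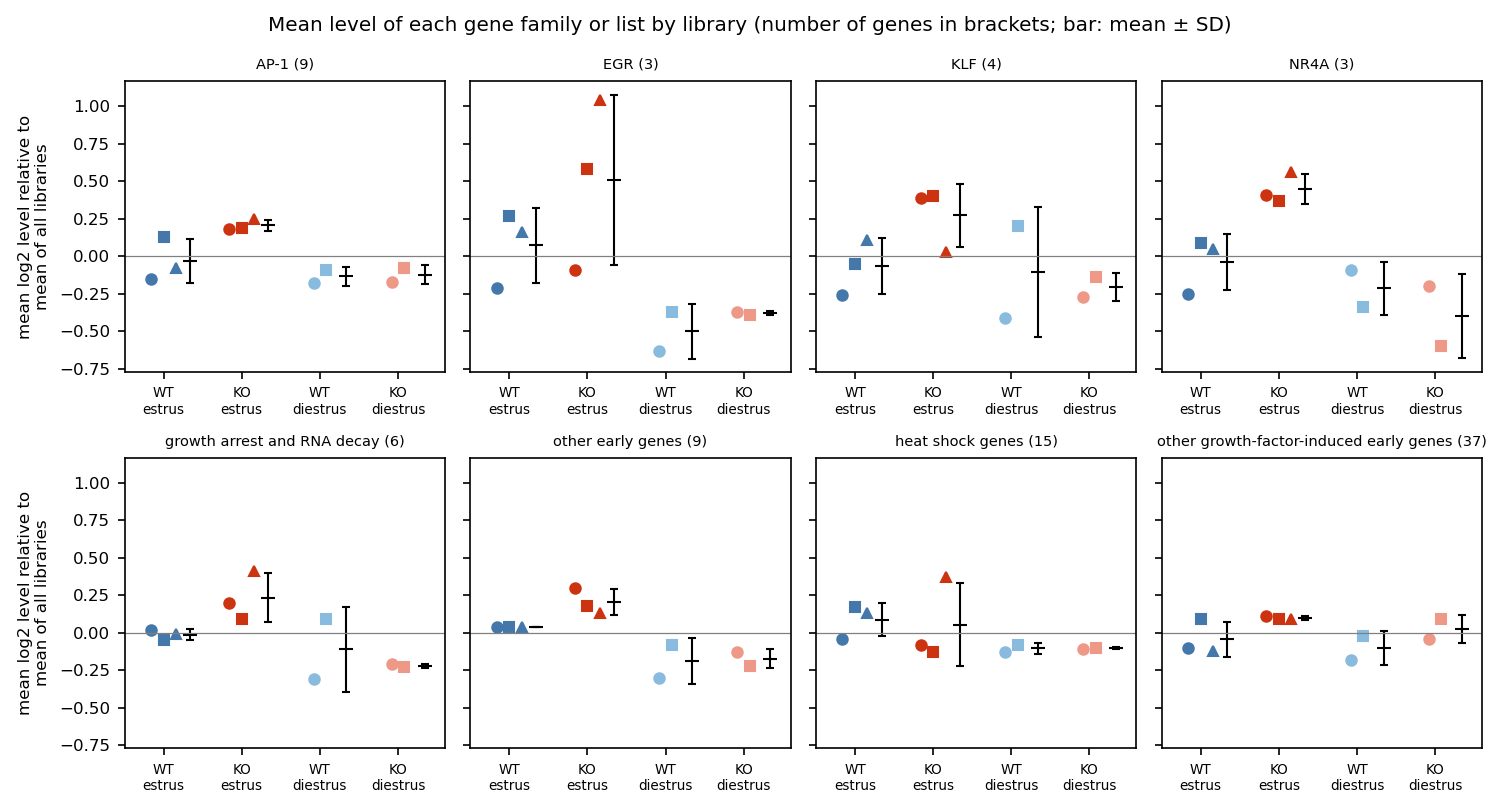
Mean log2 deviation of the genes of each family, of 15 heat shock genes and of 37 other growth-factor-induced genes from their own mean over the 10 libraries, by group. Circles, squares and triangles are libraries 1, 2 and 3 and bars the mean ± SD; KO estrus 1 and KO estrus 3 lie at -0.09 and 1.04 in the EGR panel and at 0.39 and 0.03 in the KLF panel.

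The mean deviation of the 34 genes from their own average was 0.24, 0.24 and 0.32 log2 units in the KO estrus libraries and -0.10, 0.06 and 0.02 in WT estrus. It was -0.29 and -0.07 in WT diestrus and -0.20 and -0.22 in KO diestrus, while the same mean over all tested genes stayed between -0.02 and 0.02. A KO estrus library held the highest value of all 10 for 27 of the 34 genes (79.4%), against 38.2% of all tested genes.

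The 3 KO estrus libraries reached this by different genes. KO estrus 1 was highest in 12 genes: Btg2, Fosl1, Fosl2, Ier3, Ier5, Klf2, Klf4, Klf6, Maff, Nr4a3, Rhob and Srf. KO estrus 3 was highest in another 12, Arc, Atf3, Dusp1, Egr1, Egr2, Egr3, Gadd45g, Ier2, Junb, Jund, Nr4a1 and Zfp36, and KO estrus 2 in Fos, Fosb and Jun. KO estrus 1 was the top library for 17.2% of all tested genes and KO estrus 3 for 13.5%, against 35.3% of the members each. For KO estrus 2 the shares were close, 7.51% of all tested genes and 8.82% of the members. KO estrus 3 was also the lowest of the 10 for Csrnp1, Ier5, Klf6 and Rhob (11.8% of the members, against 12.8% of all tested genes).

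Between KO estrus 3 and KO estrus 1, 17 of the 34 genes (50%) differed by more than 1.5-fold, against 27.8% of all tested genes, and 7 (20.6%, against 9.97%) by more than 2-fold. These libraries hold the most top values among the 34 genes, so the pair is not a neutral choice and the excess is only a description. Of the 34 genes, 16 were higher in KO estrus 3. Nr4a1 was higher there by 1.54 and Egr3 by 1.38 log2 units, while Rhob differed by -1.83 and Klf6 by -1.22. The EGR family mean was -0.09 in KO estrus 1, 0.58 in KO estrus 2 and 1.04 in KO estrus 3, whereas the KLF mean was 0.39, 0.40 and 0.03. Heat shock genes, another stress-induced group, had means of -0.08, -0.13 and 0.37 in the same libraries. These values are single libraries with no replicate of their own.

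**Figure D4:**
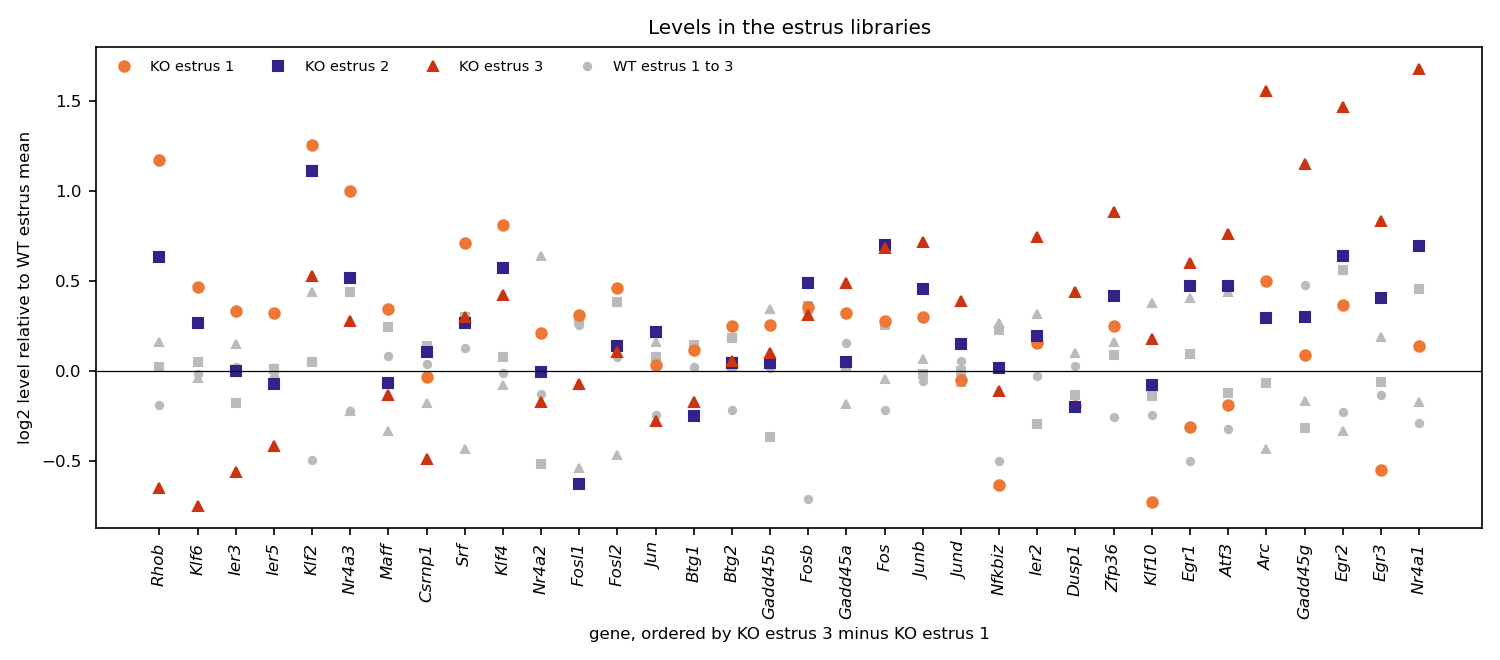
Log2 level of each of the 34 genes in the 3 KO estrus libraries (coloured) and the 3 WT estrus libraries (grey), relative to the WT estrus mean, ordered by the difference of KO estrus 3 to KO estrus 1. That difference runs from -1.83 for Rhob and -1.22 for Klf6 at the left to 1.38 for Egr3 and 1.54 for Nr4a1 at the right, and is above 0 in 16 genes.

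The spread between libraries of a group was wide for most of the 34 genes. Their median residual standard deviation was 0.31 log2 units, against 0.264 over all tested genes. Compared with the 500 tested genes nearest in level, 26 members had a spread above the median and 9 above the 90th percentile: Rhob, Nr4a1, Arc, Fosl1, Klf10, Klf2, Gadd45g, Gadd45b and Klf6. Only 5 lay under the 35th percentile: Junb, Jund, Btg1, Btg2 and Gadd45a. Junb (percentile 11.6) and Btg2 (29.6) passed the stage test in KO with differences of 0.65 and 0.59. Rhob (99.2) had 0.58 and an adjusted p of 0.324 by limma. Klf2 (93.4) and Arc (96.6) passed with a wide spread, while Jund (13.4), Btg1 (25.2) and Gadd45a (33.8) did not pass with a narrow one.

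Genes upstream of the 34 and their partners were taken from lists written with earlier results of these data known. Of 19 upstream factors and kinases, 1 was called at estrus (5.26%, against 4.2% of all tested genes). It was Mapk3, which encodes the kinase ERK1 that activates RSK2. Mapk3 had 1356, 1160 and 1161 normalized counts in KO estrus against 883, 801 and 749 in WT estrus, without overlap, and 804, 861, 931 and 690 at diestrus. It was higher by 0.59 ± 0.15 on the log2 scale (adjusted p = 0.0451, limma), a call that held in 2 of the 10 omissions of 1 library. The list's median was 0.07, with 11 of 19 above 0.

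Of 16 tested AP-1 partners and other bZIP genes, Cebpb alone was called at estrus (6.25%, against 4.2% of all tested genes). It encodes a bZIP factor of luminal differentiation and had 2742, 2340 and 3677 normalized counts in KO estrus against 1887, 1839 and 1640 in WT estrus. The groups did not overlap, and the difference was 0.68 ± 0.17 (adjusted p = 0.0459, limma), called in 1 of the 10 omissions. Averaged over both stages, Hbegf, an EGF receptor ligand among 37 other growth-factor-induced genes, was higher in KO by 0.76 ± 0.14 (adjusted p = 0.0457, limma). Hbegf was also called in 1 of the 10 omissions. As the only call it was 2.7% of that list, against 0.665% of all tested genes.

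Between the stages in KO, median log2 differences of these lists were -0.06 for upstream factors and kinases (1 of 19 higher, 0 lower), -0.26 for AP-1 partners (2 of 16 higher, 2 lower), 0.09 for EGR corepressors and other KLF genes (0 of 9 higher, 1 lower), 0.11 for other growth-factor-induced genes (1 of 37 higher, 3 lower) and 0.23 for heat shock genes (1 of 15 higher, 0 lower). The lists had 5.26% to 25% of their genes called, against 16.6% of all tested genes (7.67% higher and 8.95% lower). The largest called differences in the lists were Batf, a bZIP partner of Jun proteins, at 1.10, and Ptgs2, the inducible prostaglandin synthase, at -1.08. Atf2, a CRE-binding partner of Jun, fell by 0.94 and Socs3, a feedback inhibitor of cytokine receptors, rose by 0.93.

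Several of the 34 genes share exon sequence with a gene on the opposite strand in GENCODE M21, and the strand setting of the counting is not given in the sources used here. Overlap was taken as the largest value for any exon of the partner, added over the exons of all transcripts of the gene. It is therefore not the total, and bases shared by several transcripts may be counted repeatedly. The values are 1163 bases for Fosl1 with Ccdc85b, 543 for Jund with Gm11175 and 238 for Gadd45a with E230016M11Rik. They are 232 bases for Jun with Junos, 125 for Zfp36 with Gm44710 and 38 for Csrnp1 with 1700019L13Rik. Reads there could have been assigned to neither gene or to the partner, so the levels of these 6 genes are uncertain to that extent, and none of them was among the 5 called. Over all libraries Gm11175 averaged 14248.9 normalized counts beside 17691.6 for Jund, and Junos 9811.7 beside 44885.5 for Jun. E230016M11Rik averaged 4757.4 beside 10482.3 for Gadd45a. Ccdc85b, Gm44710 and 1700019L13Rik averaged 128.4 to 204.8, beside 1301.5 to 10697.9 for their partners.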

How the data were processed

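Total RNA of sorted luminal cells was sequenced in 10 libraries. STAR, HTSeq and DESeq2 with mm10 are named, without versions, in the submitters' processing notes. Each deposited value is a score: a normalized count that the authors rounded, not divided by length. Because KO titles contain WT, genotype came from the genotype entry. Values were used as log2(value + 1), and the 15180 genes with a mean of at least 10 were tested with limma 3.58.1 (R 4.3.3): 1 mean per group over all 10 libraries, a trend of spread on level, and 6 two-sided contrasts with Benjamini-Hochberg adjustment (threshold 0.05). Groups of 2 borrow the spread of the others. Fold changes are on the log2(value + 1) scale, which understates those of low genes. The fit was tested on simulated data. Symbols (26249 genes matched, 63 not), exons and lengths came from GENCODE M21, promoters from RefSeq.

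The members, families and other lists were chosen with earlier results of these data known. Values are given in full for members called, for the highest member per kb of each family, and for the 3 largest differences per contrast among members whose groups do not overlap. Of other lists, at most 4 called genes per contrast are named. Marker genes called in a comparison are named beside it. The fit was repeated with pseudocounts of 0.5 and 5, without a filter, with a minimum mean of 50, and with equal totals, quantile normalization, no trend, library weights, the replicate number as a block, the compared groups alone, removal of each library's trend on length, and omission of libraries. Count models were not run, because rounding prevented recovery of whole reads. Figures were drawn with matplotlib 3.10.9 in Python 3.11.15.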

Additional observations from a re-analysis of the deposited data

How the results depend on the processing

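Among 15 pairs of a named gene and a comparison, 282 of 326 values under the alternatives kept their direction and side of the threshold, 35 lost a call, 9 gained one and 0 reversed. Genes called between genotypes at estrus went from 0 (4.2% of all genes) to 2 with a mean of at least 50 (7.17%), with quantile normalization (5.38%) or with the replicate block (6.56%), to 1 with equal totals (3.78%), and to 0 to 3 with 1 library left out. Genes called between the stages in KO went from 5 (16.6%) to 2 without a filter (6.18%), to 3 without the trend in the spread (11.1%), with the replicate block (17.2%), with the compared groups alone (11.9%) or with the length trend removed (10.4%), to 8 with library weights (25.6%), to 0 without KO estrus 1 and 3 (1.28%), and to 0 to 6 with 1 library left out. The other 4 counts stayed at 0 in every alternative run. With 1 library left out, the median log2 difference of the 34 genes ran from 0.17 to 0.32 for KO against WT at estrus, from -0.15 to 0.10 at diestrus, from 0.07 to 0.17 averaged, from 0.07 to 0.23 between stages in WT, from 0.37 to 0.49 between stages in KO and from 0.17 to 0.34 for the interaction. The interaction median moved from 0.25 to 0.34 with the length trend removed and to 0.15 without KO estrus 1 and 3. The cause of these shifts was not tested, beyond the smaller number of libraries where one was left out.

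Libraries share only a replicate number: the deviations of same-numbered WT and KO estrus libraries correlated at 0.187, 0.083 and 0.031. Same-numbered WT estrus and WT diestrus libraries correlated at -0.131 and -0.132, and differently numbered pairs ran from -0.147 to 0.132. The block kept Arc, Junb and Klf2 called between the stages in KO. With the compared groups alone, the averaged and interaction contrasts, which need all 4 groups, gave no value. Where an omission left 1 library in a group, its spread was taken from the other groups. The groups of 2 libraries limit both diestrus arms, and counts near 10, as for Egr3, Nr4a2 and Nr4a3, limit the precision of those genes.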
